A study of Homo sapiens with 22 samples.

Results

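Loss of the RNA for COP1, a ubiquitin ligase, was followed by different RNA responses in HepG2 and in Huh7, and the results given here describe where the responses differed and where they did not. Both are established human liver cancer cell lines, Huh7 from a hepatocellular carcinoma and HepG2 from a hepatoblastoma. Each line received 15 nM of COP1 siRNA or of a negative control siRNA, and RNA was measured after 48 h on Illumina Ref-8v3 bead arrays, on which each probe reports the RNA of 1 transcript region as a fluorescence intensity. Huh7 had 3 arrays per siRNA and HepG2 had 4, which makes 14 of the 22 arrays of the series, the others being of Hep3B cells. The response of a gene in a line is the mean of the COP1 siRNA arrays minus that of the control arrays on the log2 scale, and the difference in response is the HepG2 response minus the Huh7 response. A positive difference thus means that the gene went up more, or down less, in HepG2. The comparison covers the genes above background on every array of at least 1 siRNA group in both lines, which were 8807 of the 12773 genes fitted, 7955 of them with a gene symbol, and 10094 of the 24526 probes. Above background means an intensity over 21.8, and each gene is represented by its brightest probe. Only 1 COP1 siRNA treatment is labelled. Effects of losing COP1 and effects of that siRNA treatment on other RNAs thus cannot be told apart. The labels do not say whether replicates were separate cultures, so the p-values rest on a spread between arrays that may be only technical.

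COP1 (also called RFWD2) marks proteins for destruction. It joins DET1, DDB1 and CUL4A in a ligase complex, and Tribbles pseudokinases bring substrates such as the liver transcription factor C/EBP alpha to it. Other known substrates are the transcription factors JUN, ETS2, ETV1, ETV4 and ETV5, and in liver the fat-droplet lipase ATGL, encoded by PNPLA2. The ligase acts on proteins, and the arrays measured only RNA, so the values below are about RNA levels of substrates and of genes further downstream.

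The arrays of both lines carried hepatocyte RNAs. Of 18 hepatocyte markers, 16 had a probe named here, and 15 or 16 of these, depending on the group, exceeded background throughout it, ALB, APOA1 and FOXA2 among them. Of 21 markers of other cell types, mostly of fibroblasts, endothelium and leukocytes, 20 had a probe. Of these, 5 to 7 exceeded background throughout a group and 5 to 11 on none of its arrays. PTPRC (leukocytes) and VWF (endothelium) exceeded it on none of the 14 arrays. By contrast, the leukocyte markers CD14 and CD68 exceeded it on all 14. PECAM1 (endothelium) did so throughout both Huh7 groups and the HepG2 COP1 siRNA group. LYZ (leukocytes) did so throughout the Huh7 control group and both HepG2 groups. Among fibroblast markers, ACTA2, PDGFRA and PDGFRB exceeded background throughout both HepG2 groups, and COL1A2 and LUM throughout the Huh7 COP1 siRNA group. COL3A1 and DCN exceeded it on no HepG2 and no Huh7 control array. The root mean square deviation of an array from the mean of its group was 0.14 to 0.28 (log2) on 13 of the arrays and 0.43 on COP1 siRNA replicate 3 of Huh7. The median residual SD of a gene was 0.24 in Huh7 and 0.16 in HepG2. Because that 1 array stood apart by this deviation, the gene lists below are also given without it. Its array quality weight, low for arrays that deviate, was 0.119, and another array had a lower one, 0.0959. The estimation of these weights stopped before it converged.

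The response of 2114 genes differed between the lines, which is 24.0% of the 8807 genes compared (limma with 1 linear model over the 14 arrays and Benjamini-Hochberg adjustment over all 12773 genes, adjusted p under 0.05). Over all 12773 genes fitted, the share was 19.7%. The response was higher in HepG2 for 976 genes (11.1%) and lower for 1138 (12.9%). The counts of the gene lists below are to be read against these shares. Within the lines, 740 genes rose (8.40%) and 909 fell (10.3%) in HepG2, 18.7% together, and 1525 rose (17.3%) and 1405 fell (16.0%) in Huh7, 33.3% together. Of the 2114 genes, 1246 had passed the test within Huh7 and not within HepG2, 384 within HepG2 and not within Huh7, and 238 within neither line. A further 77 had changed in the same direction in both lines but by different amounts, more in Huh7 for 56 of them and more in HepG2 for 21. The remaining 169 genes (1.92%) changed in opposite directions, 90 of them up in HepG2 and down in Huh7. Both lines shared 563 changes in the same direction, of which 486 showed no called difference, 178 rises and 308 falls. Across the 8807 genes, Pearson's r between the HepG2 and the Huh7 response was 0.16, a description of genes measured on the same arrays and not of independent replicates. A called difference remained called in each of the 14 fits that left out 1 array for 1246 genes. The number called with 1 array left out ran from 1377, without control replicate 3 of Huh7, to 3226, without COP1 siRNA replicate 1 of Huh7. Without COP1 siRNA replicate 3 of Huh7, the array that stood apart, 2997 genes changed in HepG2 and 3026 in Huh7, and 290 in opposite directions. Opposite changes numbered 298 without COP1 siRNA replicate 1 of Huh7, 98 and 108 without control replicate 4 or 1 of HepG2, and 110 without its COP1 siRNA replicate 2. Fewer genes changed in Huh7 than in HepG2 when arrays were weighted by quality, with weights whose estimation stopped before it converged (1456 and 3454), or the spread was estimated per line (1757 and 2839), so the order of these counts depended on the setting.

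**Figure D1:**
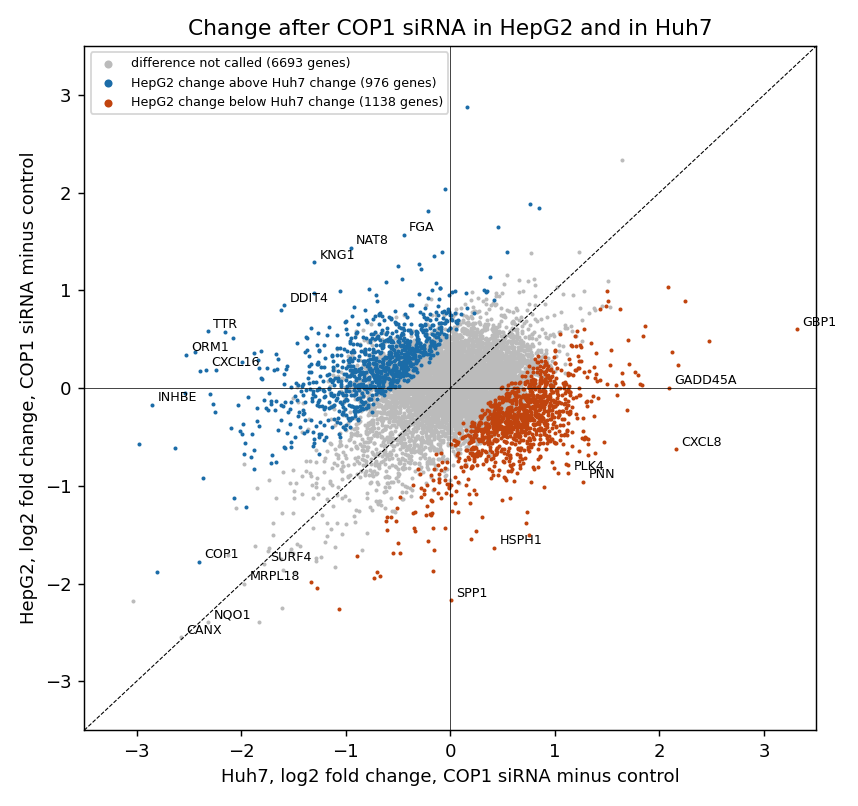
Log2 fold change after COP1 siRNA in Huh7 (horizontal) and in HepG2 (vertical) for the 8807 genes compared, 1 point a gene, with the dashed line marking equal responses. The 976 genes in blue responded higher in HepG2 and the 1138 in orange lower, and genes such as CANX and SURF4 lie near the line of equal responses.

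The knockdown itself was present in both lines and deeper in Huh7 on the brightest COP1 probe. COP1 (chromosome 1, 175944831 to 176207286 in GRCh38.p14) had bead intensities of 1765, 1966 and 1671 on the Huh7 control arrays and 269.5, 302 and 265 on the Huh7 COP1 siRNA arrays. In HepG2 the control arrays read 1451, 1764, 1456 and 1674 and the COP1 siRNA arrays 365, 387, 416 and 471. Every COP1 siRNA array lay below every control array of its line, and the control arrays of the lines overlapped. The response was -2.40 ± 0.13 (SE, n = 3 and 3) in Huh7 and -1.78 ± 0.11 (n = 4 and 4) in HepG2. By the ratio of mean intensities, without the log2 scale, 15.5% and 25.8% of the control intensity were left. The difference of 0.63 ± 0.18 passed the test (limma adjusted p = 0.019), and it no longer did without 1 control array, replicate 2 of Huh7 (adjusted p = 0.053). A second COP1 probe changed by -2.07 in Huh7 and -1.89 in HepG2, and its difference of 0.18 did not pass (limma adjusted p = 0.47). All SEs and numbers of arrays below are of this kind, and where a sentence gives intensities of both siRNAs, those of the control arrays come first.

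The differences in response of COP1, its partners and its substrates followed no common direction. Of 32 listed genes, COP1 itself among them, 26 were compared. The response was higher in HepG2 for 5, COP1 included, lower for 2 and not called for 19. The median difference was -0.01, against -0.01 over all genes compared. When Huh7 COP1 siRNA replicate 3 was left out, the response was higher for 6 and lower for 2, with medians of 0.11 and -0.02. Within the lines, falls outnumbered rises: 10 of the 26 fell and 3 rose in Huh7, and 7 fell and 2 rose in HepG2. COP1 was among the falls in both. The median response was -0.33 in Huh7 and -0.04 in HepG2, against 0.02 in each line over all genes compared. The scaffold and adaptor genes of the complex gave differences of 0.20 (DET1), -0.04 (DDB1), -0.47 (CUL4A) and -0.04 (CUL4B), none of which passed. RBX1, the RING subunit of cullin ligases, gave 0.71 and 0.09 without Huh7 COP1 siRNA replicate 3. COPS5, the catalytic subunit of the COP9 signalosome that switches cullin ligases off, fell in both lines, by 0.70 in Huh7 and 0.87 in HepG2.

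Among the Tribbles family, TRIB1 and TRIB3 moved apart between the lines and from each other. TRIB1, the adaptor that presents C/EBP alpha to COP1, read 1937, 2028 and 1893 on the Huh7 control arrays and 3544, 4386 and 8676 on the COP1 siRNA arrays, and 3332, 4428, 3862 and 4038 and then 3282, 3728, 4033 and 3702 in HepG2. The Huh7 groups did not overlap, the third COP1 siRNA replicate was the highest, and the HepG2 groups overlapped. TRIB1 rose by 1.36 ± 0.23 in Huh7, its response in HepG2 was -0.08 ± 0.20, and the difference was -1.44 ± 0.30 (limma adjusted p = 0.0033) or -1.07 without that replicate. TRIB3, a pseudokinase induced by amino acid shortage, read 7691, 6987 and 8435 and then 2993, 3049 and 2868 in Huh7 and 2892, 2759, 2910.4 and 2557 and then 2721, 2543, 2903 and 3390.0 in HepG2. It fell in Huh7 with groups far apart, and its HepG2 groups overlapped. The difference was 1.40 ± 0.18 (limma adjusted p = 5.7e-05).

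CEBPA, which encodes C/EBP alpha, a factor that keeps hepatocytes differentiated, showed the largest difference among the substrates. In Huh7 its intensity was 8509, 8106 and 8376 with control siRNA and 1956, 2193 and 1087 with COP1 siRNA, while in HepG2 it was 8376, 8889.6, 9380.1 and 9261 and then 8572, 8345, 7785 and 7279. The Huh7 groups lay apart and the HepG2 groups overlapped. CEBPA fell by 2.26 ± 0.19 in Huh7 against a response of -0.17 ± 0.16 in HepG2, a difference of 2.10 ± 0.25 (limma adjusted p = 3.0e-05). CEBPB, a relative active in the acute phase response, fell in Huh7 by 1.26 and gave -0.01 in HepG2. The ETS factors split: ETV4 fell in both lines, with responses of -2.37 ± 0.14 in Huh7 and -0.92 ± 0.12 in HepG2, and more in Huh7 (difference 1.45 ± 0.19, limma adjusted p = 9.1e-05), as on its second probe with 1.32. Its relative ETV5 fell by 0.73 and 0.56, with a difference of 0.16 (95% interval -0.27 to 0.60) that did not pass. ETS2 instead rose in Huh7 by 1.37 ± 0.14, gave -0.28 in HepG2 and differed by -1.66 ± 0.19 (limma adjusted p = 2.6e-05). PNPLA2, the lipase, fell by 0.67 in Huh7 and rose by 0.49 in HepG2, at intensities no higher than 446. JUN showed no called response in either line, and its difference was -0.12 (95% interval -0.70 to 0.45). STK40, a pseudokinase related to the Tribbles, fell in both, by 0.87 in Huh7 and 1.26 in HepG2.

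**Figure D2:**
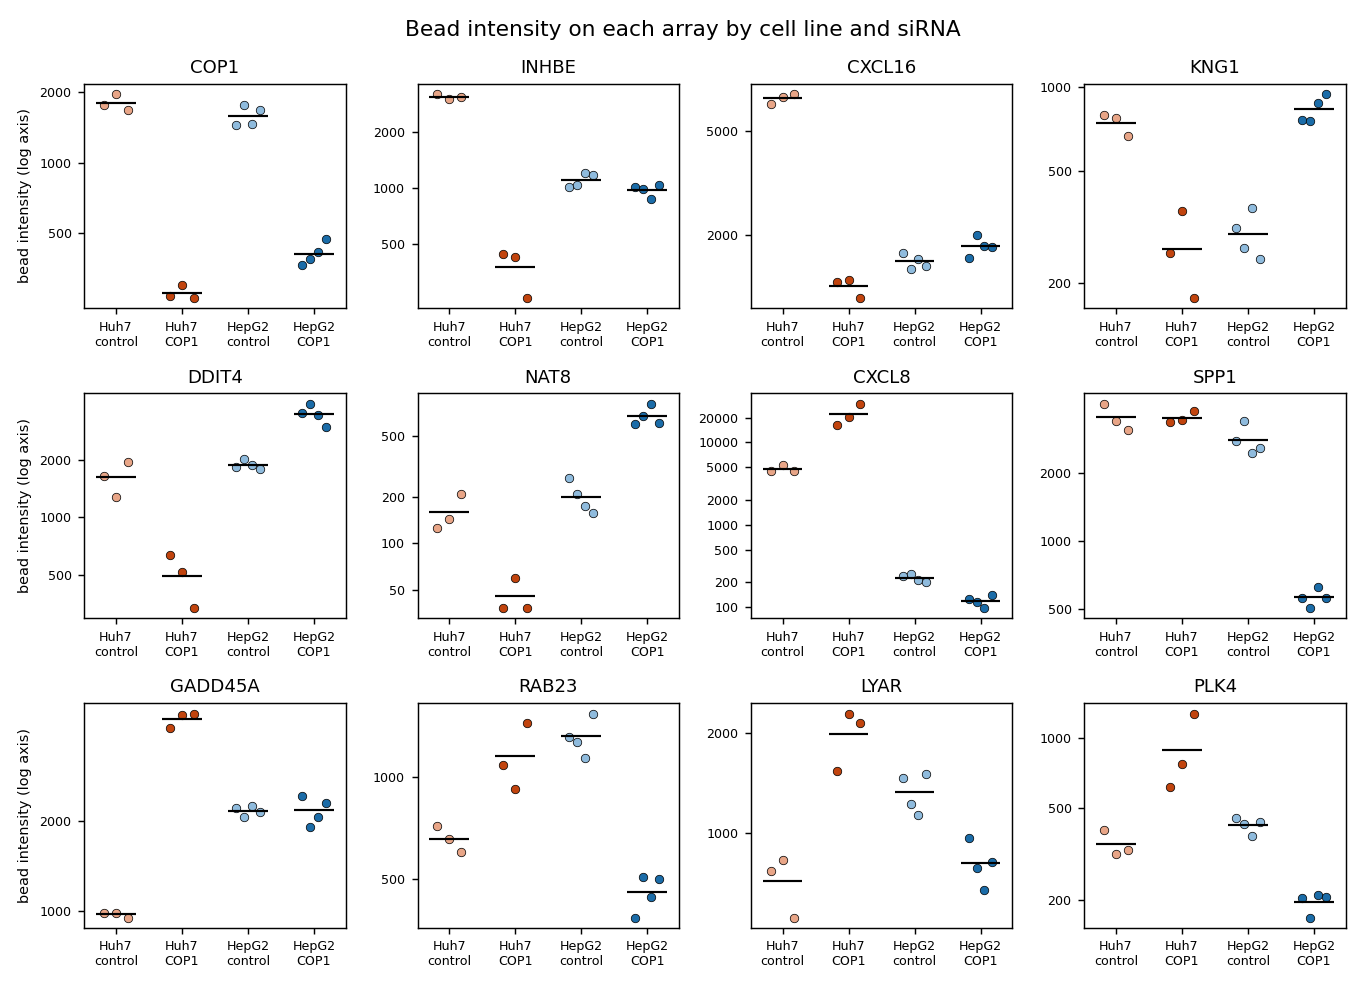
Bead intensity on a log axis on each of the 14 arrays for 12 genes, by cell line and siRNA, with 1 point an array and bars at group means. COP1 fell in both lines, INHBE and CXCL16 fell in Huh7 alone by the test within each line, KNG1, DDIT4 and NAT8 rose in HepG2 and fell in Huh7, and CXCL8, RAB23, LYAR and PLK4 did the reverse.

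All 12 named genes with the widest positive differences fell in Huh7, and KNG1 and DDIT4 among them rose in HepG2, where the other 10 gave no called change. TTR, which encodes the thyroid hormone carrier transthyretin (chromosome 18, 31591877 to 31598821), read 1787, 2173 and 1824 on Huh7 control arrays and 586, 528 and 84.9 on COP1 siRNA arrays. In HepG2 it read 2241, 1827, 1938 and 1931 and then 3165, 3927, 2613 and 2481. The third COP1 siRNA replicate of Huh7 was the lowest of all, and no groups of one line overlapped. The responses were -2.32 ± 0.35 in Huh7 and 0.58 ± 0.31 in HepG2, and their difference of 2.90 ± 0.47 (limma adjusted p = 0.00054) was 2.24 without that array. ORM1 and ORM2, the acute phase proteins called orosomucoid, are near-identical copies whose probes may share RNA, and they differed by 2.87 and 2.74. SLC51B, the beta subunit of the bile acid exporter, fell by 2.44 ± 0.32 in Huh7 and differed by 2.81, or 2.23 without the third replicate. TM4SF5, a membrane protein of the tetraspanin-like group, differed by 2.57 with that array and 1.67 without it, its Huh7 COP1 siRNA arrays reading 2991, 2576 and 361.

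The large positive differences of CXCL16, CD14 and NR0B2 changed less when the third Huh7 COP1 siRNA replicate was left out. CXCL16, a membrane-bound chemokine (chromosome 17, 4733533 to 4739928), read 6351, 6759.8 and 6961 in Huh7 with control siRNA and 1322, 1340.0 and 1146 with COP1 siRNA. Its HepG2 values were 1711, 1485, 1616 and 1517 and then 1634, 2007, 1813 and 1791, so the groups lay far apart in Huh7 and overlapped in HepG2. CXCL16 fell by 2.33 ± 0.13 in Huh7 and its difference was 2.52 ± 0.17 (limma adjusted p = 2.4e-07), or 2.45 without the third replicate. CD14, a co-receptor for bacterial lipopolysaccharide listed among the leukocyte markers, fell by 2.08 ± 0.24 in Huh7 and differed by 2.59, or 2.17 without the third replicate. NR0B2 (SHP), the repressor through which bile acids switch off their own synthesis, fell in Huh7 from 816, 904 and 917 to 159, 178 and 63.9. Its HepG2 intensities were 555, 503, 518 and 435 and then 531, 746, 602 and 464, with overlapping groups. The NR0B2 difference was 2.42 ± 0.26 (limma adjusted p = 1.2e-05), or 2.15 without the third Huh7 replicate.

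The hepatocyte gene lists, some of which share members, mostly held positive differences. Of 22 hepatocyte lineage transcription factors 11 were compared, 6 responded higher in HepG2 and 0 lower, and the median difference was 0.63. Of these 11, 9 fell in Huh7 and 2 in HepG2, and none rose in either line. FOXA3, a pioneer factor of the liver, fell by 2.25 ± 0.22 in Huh7 and gave -0.24 ± 0.19 in HepG2 (difference 2.01). CREB3L3, a membrane-bound factor for acute phase and lipid genes, fell by 0.82 and gave 0.40. PROX1, a homeobox factor of early liver cells, fell by 1.13 in HepG2, and its difference of -0.68 did not pass.

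Of 28 hepatocyte secreted and surface markers 21 were compared, with 11 higher in HepG2, 0 lower and a median difference of 0.76. In Huh7, 11 of the 21 fell and none rose, and in HepG2 4 rose and 1 fell. ASGR1, a subunit of the asialoglycoprotein receptor, fell by 1.71 ± 0.19 in Huh7 and gave -0.13 ± 0.16 in HepG2. HPX, the heme scavenger hemopexin, changed in opposite directions: Huh7 read 1154, 1105 and 1585 and then 593, 689.9 and 619, and HepG2 405, 363, 322 and 261 and then 628, 703, 641 and 640.2. Neither line's groups overlapped. HPX differed by 1.75 ± 0.21 (limma adjusted p = 3.1e-05). SERPINA6, which carries corticosteroids in blood, rose by 0.72 in HepG2 and fell by 0.58 in Huh7. ALB, the albumin gene, gave a difference of -0.16 that did not pass.

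Fibrinogen, acute phase and complement genes included 18 of 34 listed, 11 of them higher in HepG2 and 0 lower (median difference 0.84). The fibrinogen genes FGA and FGG rose in HepG2. FGA read 1792, 2124, 1998 and 1888 on HepG2 control arrays and 5309, 6031, 6126 and 6303 on COP1 siRNA arrays, which lay clearly apart. In Huh7 it read 25872, 25224 and 23198 and then 12898, 15754 and 29320.4, near the top of the intensity scale and with overlapping groups. The response of FGA was 1.57 ± 0.18 in HepG2 and -0.45 ± 0.21 in Huh7 (difference 2.02 ± 0.28, limma adjusted p = 0.00013). FGG rose by 1.09 in HepG2 and fell by 0.62 in Huh7, where the third COP1 siRNA replicate was the highest and not the lowest. CFB, complement factor B, fell by 1.27 in Huh7 to intensities near background and gave 0.25 in HepG2.

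The coagulation list had 15 of 25 genes compared, 8 higher in HepG2, 1 lower and a median difference of 0.94. KNG1, the gene of kininogen, the precursor of bradykinin (chromosome 3, 186717359 to 186744410), read 795, 773 and 669 and then 256, 361 and 177 in Huh7 and 315, 267, 371 and 245 and then 765, 754, 875 and 944 in HepG2. The control arrays of Huh7 and the COP1 siRNA arrays of HepG2 were the high ones, and groups of one line did not overlap. It fell by 1.30 ± 0.18 and rose by 1.29 ± 0.16, a difference of 2.59 ± 0.24 (limma adjusted p = 3.0e-06). SERPINF2, the plasmin inhibitor, and F7, coagulation factor VII, both fell by 1.47 in Huh7 and gave 0.46 and 0.06 in HepG2. F3, tissue factor, which starts clotting, was the gene of this list lower in HepG2: its Huh7 control arrays were all at background (18.4, 15.3 and 5.42) and the COP1 siRNA arrays read 235, 257 and 463. That rise in Huh7 was at least 3.93-fold, and the limma adjusted p of the difference was 0.00021.

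Of the smaller liver lists, bile acid transport and its nuclear receptor axis had 8 genes compared, 4 higher in HepG2 and 1 lower (median 0.65), and cytochrome P450, UGT and SULT enzymes had 12, with 5 higher and 0 lower (median 0.34). ABCC2, an exporter of conjugated bilirubin, was the lower one, with a fall of 0.50 in HepG2. SULT2A1, which sulfates bile acids and steroids, rose by 0.77 in HepG2 and gave -0.04 in Huh7. Without Huh7 COP1 siRNA replicate 3, the higher and lower counts were 6 and 0 for the transcription factors, 13 and 0 for the secreted and surface markers, 12 and 0 for the acute phase genes, 9 and 2 for coagulation, 4 and 1 for bile acid transport and 6 and 0 for the enzymes. The medians without it were 0.62, 0.63, 0.85, 0.76, 0.60 and 0.47. That array's part in the size of single genes such as TTR was not tested beyond these values.

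**Figure D3:**
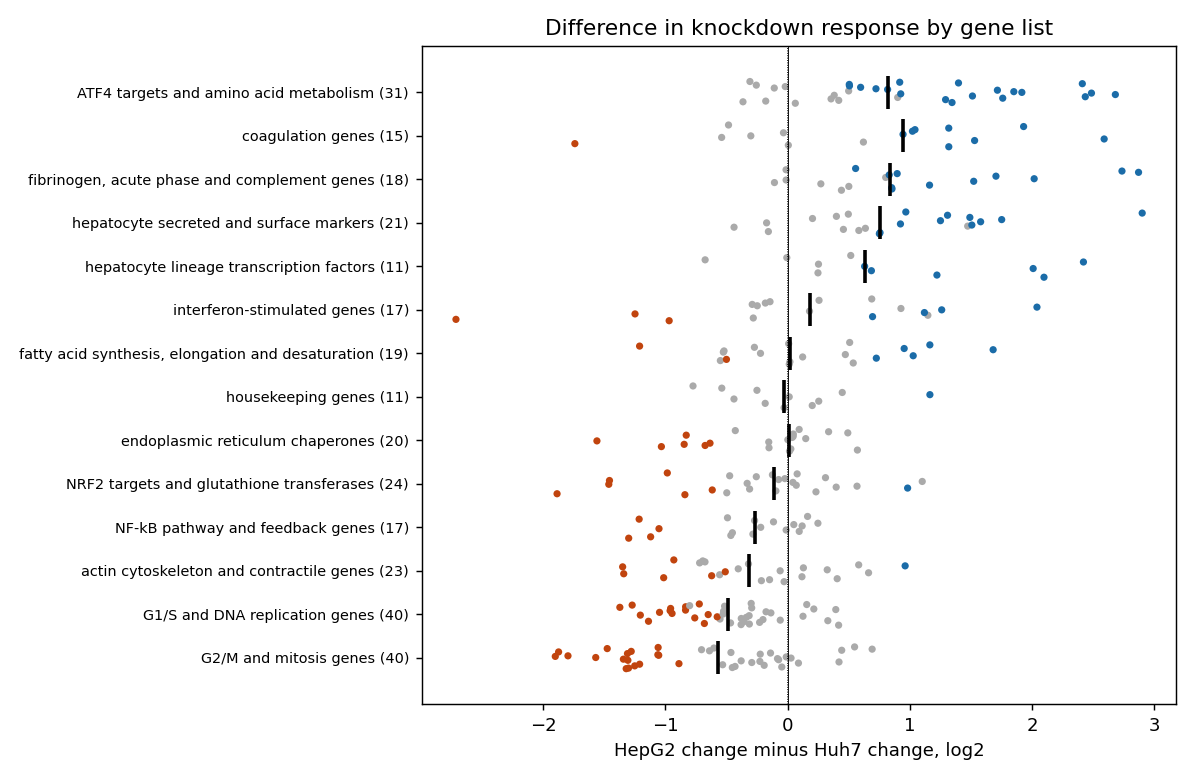
Difference in response (HepG2 minus Huh7, log2) for each compared gene of 14 gene lists, 1 point a gene, with the number of genes in brackets and a bar at the list median. Blue points were called higher in HepG2, orange lower and grey not called, and the dotted line is the median of all genes compared, -0.01. The ATF4 list has 19 blue and 0 orange points, and the G2/M list 0 blue and 17 orange.

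Amino acid and stress genes formed the list with the highest number of positive differences. ATF4 is the transcription factor that cells use to raise amino acid synthesis and transport when translation initiation is restrained. Of 36 listed targets and amino acid genes, 31 were compared, 19 responded higher in HepG2, 0 lower, and the median difference was 0.82 (22 and 0 with a median of 0.73 without Huh7 COP1 siRNA replicate 3). In Huh7, 20 of the 31 fell and 1 rose, and in HepG2 5 fell and 4 rose. ATF4 RNA itself gave -0.26 in HepG2 and -0.08 in Huh7, neither passing.

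INHBE, an inhibin subunit secreted by hepatocytes (chromosome 12, 57455307 to 57458025), read 3229, 3023 and 3095 on Huh7 control arrays and 444, 426 and 256 on COP1 siRNA arrays. In HepG2 the intensities were 1014, 1042, 1213 and 1182 and then 1019.9, 993, 870.2 and 1036. The Huh7 groups were far apart and the HepG2 groups overlapped. INHBE fell by 2.85 ± 0.16 in Huh7, gave -0.17 ± 0.14 in HepG2 and differed by 2.68 ± 0.21 (limma adjusted p = 6.5e-07). NUPR1, a small stress-induced chromatin protein, dropped from 644, 644 and 555 to 60.3, 59.0 and 17.5 in Huh7, the last value being below the background threshold. It read 514, 416, 579.7 and 379.7 and then 439.9, 559.6, 428 and 386 in HepG2, where the groups overlapped, and differed by 2.49 ± 0.23. STC2, a secreted glycoprotein of calcium and phosphate balance, fell in both lines, by 2.98 ± 0.15 in Huh7 and 0.57 ± 0.13 in HepG2 (difference 2.41 ± 0.20, limma adjusted p = 1.3e-06).

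DDIT4, an inhibitor of the growth kinase mTORC1 (chromosome 10, 72273924 to 72276036), changed in opposite directions. It read 1649, 1282 and 1938 and then 636, 516 and 337 in Huh7, and 1824, 2013, 1884 and 1792 and then 3512, 3923, 3407 and 2969 in HepG2. The COP1 siRNA arrays lay below all controls in Huh7 and above all controls in HepG2. DDIT4 fell by 1.59 ± 0.18, rose by 0.85 ± 0.16 and differed by 2.44 ± 0.24 (limma adjusted p = 5.4e-06). PSPH, the last enzyme of serine synthesis, also fell in Huh7 (-1.18) and rose in HepG2 (0.54). The first enzyme of that pathway, PHGDH, fell in Huh7 (-1.65) and gave 0.20 in HepG2. PCK2, the mitochondrial enzyme making phosphoenolpyruvate, differed by 1.92 ± 0.17, and CTH and CBS, the enzymes turning homocysteine into cysteine, by 1.76 and 1.29. ASNS, asparagine synthetase, fell by 1.28 in Huh7 and gave 0.06 in HepG2. Not called were the alanyl-tRNA synthetase gene AARS1, which fell in both lines by 1.07 and 1.01, and CEBPG, which fell by 1.28 and 0.92. ATF3 stood alone in rising in Huh7, by 0.60.

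ATF4 binds together with C/EBP proteins at a composite element, whose core letters TGATGNAA were searched on both strands of the RefSeq promoter windows (250 bases before to 50 after the start, GRCh38.p14). The core was found in 2 of 14 called and 3 of 11 uncalled list genes with a window, 14.3% and 27.3%, in 1.71% of the windows of compared genes and in 3.67% of all 27303 windows. The ASNS window is shown because it holds the known element of that gene, in capitals, 68 bases before the start, and ASNS is one of the called genes.

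ASNS (chr7:97872409-97872658, minus strand): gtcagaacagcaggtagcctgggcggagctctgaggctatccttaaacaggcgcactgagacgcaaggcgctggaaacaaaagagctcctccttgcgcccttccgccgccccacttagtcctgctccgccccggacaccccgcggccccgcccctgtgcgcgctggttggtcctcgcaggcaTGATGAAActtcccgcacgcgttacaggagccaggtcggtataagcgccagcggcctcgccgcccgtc

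Genes of the cell division cycle gave differences in the other direction. Of 45 G2/M and mitosis genes 40 were compared, 17 responded lower in HepG2 and 0 higher, and the median difference was -0.57. In HepG2, 10 of the 40 fell and 1 rose, while in Huh7 14 rose and 2 fell. Of 46 G1/S and DNA replication genes 40 were compared, 15 lower and 0 higher, with a median of -0.49. In that list 10 fell and none rose in HepG2, and 12 rose and 2 fell in Huh7. Without Huh7 COP1 siRNA replicate 3 the counts were 17 lower and 0 higher (median -0.39) and 18 lower and 1 higher (median -0.49).

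PLK4, the kinase that starts centriole duplication (chromosome 4, 127880893 to 127899224), read 402, 318 and 330.0 and then 619, 772 and 1280.3 in Huh7 and 452, 427, 378 and 435 and then 204, 168, 209.8 and 206 in HepG2. Groups of one line did not overlap, and the third Huh7 COP1 siRNA replicate was the highest. PLK4 rose by 1.13 ± 0.19 in Huh7, fell by 0.87 ± 0.16 in HepG2 and differed by -2.00 ± 0.25 (limma adjusted p = 4.8e-05), or -1.73 without that array. HMMR, a spindle and hyaluronan-binding protein, likewise read 650.1, 599.5 and 564 and then 833, 1083 and 2458, against 1078, 939, 718 and 1267 and then 513, 446, 502 and 553 in HepG2. The third replicate was again the highest by far, and the difference of -1.90 ± 0.35 was -1.47 without it, still passing (limma adjusted p = 4.6e-05). KIF11, the kinesin that pushes spindle poles apart, rose by 1.28 ± 0.22 in Huh7 and gave -0.52 ± 0.19 in HepG2. NCAPG, a condensin subunit, rose by 1.23 ± 0.25 and gave -0.65 ± 0.22. TOP2A, the DNA topoisomerase of mitosis, fell in HepG2 by 0.94 and gave 0.53 in Huh7.

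**Figure D4:**
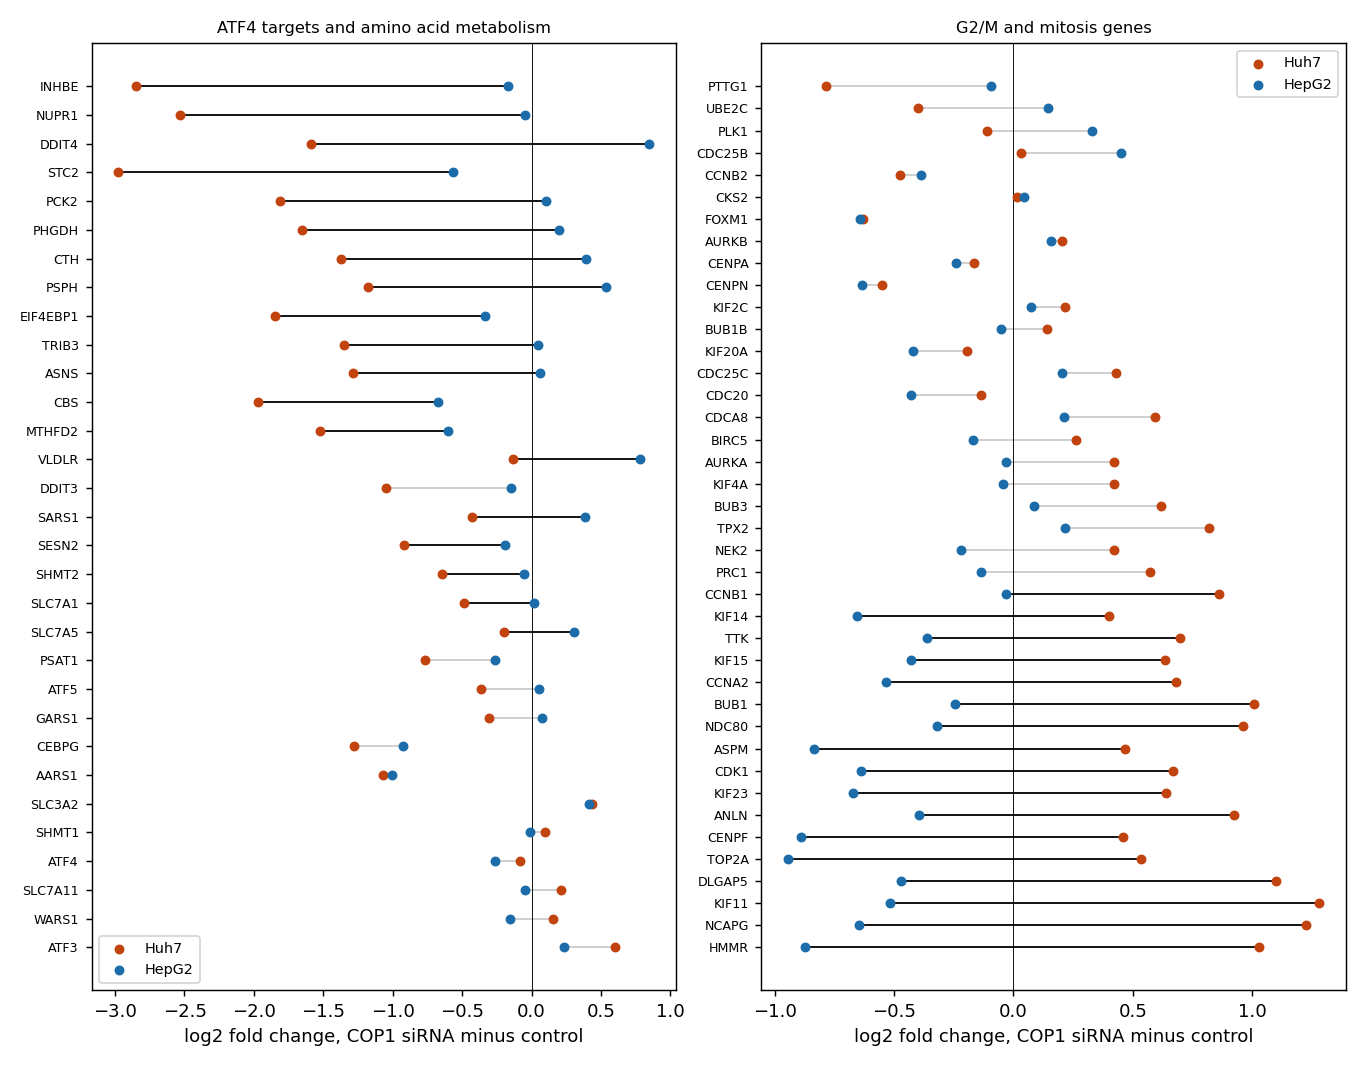
Log2 fold change after COP1 siRNA in Huh7 (orange) and HepG2 (blue) for each compared gene of the ATF4 list (31 genes, left) and of the G2/M list (40 genes, right). A black line joins the points of a gene whose responses differed by the test and a grey line the others. On the left the black lines mostly run from falls in Huh7 up to HepG2 values nearer 0, and on the right mostly from rises in Huh7 down to HepG2 values below 0.

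Not every mitotic gene followed. FOXM1, a transcription factor of late cell cycle genes, fell in both lines, by 0.63 in Huh7 and 0.64 in HepG2. The cyclin gene CCNB2 fell by 0.47 and 0.39, whereas CCNB1 rose by 0.86 in Huh7 and gave -0.03 in HepG2, a called difference of -0.89. AURKA and PLK1, kinases of mitotic entry, gave differences of -0.45 and 0.44 that did not pass. Among replication genes MCM10, needed to start forks, fell in both lines and more in HepG2, from 764, 672, 590.3 and 828 to 123, 133, 133 and 128. Its Huh7 intensities were 439.7, 449 and 353 and then 198, 229 and 228. The HepG2 groups lay further apart, and the difference was -1.21 ± 0.18 (limma adjusted p = 0.00029). RRM2, a subunit of the enzyme that makes deoxynucleotides, fell by 1.26 in HepG2 and gave 0.01 in Huh7, and CDK6, a G1 kinase, fell by 0.99 in HepG2 and gave 0.15. RFC3, a clamp loader subunit, rose by 0.66 in Huh7 and fell by 0.71 in HepG2.

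Many mitotic promoters carry the cell cycle genes homology region, with the core TTTGAA. Searched on both strands of the same windows, it was in 13 of 16 called G2/M genes with a window (81.2%) and 10 of 17 uncalled ones (58.8%), against 9.38% of the windows of compared genes and 15.4% of all. The 250 bases before the start of 3 called genes are shown with each match in capitals, since these genes rose together in Huh7. The HMMR match is doubled, and KIF11 has its match on the other strand.

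HMMR (chr5:163460382-163460631, plus strand): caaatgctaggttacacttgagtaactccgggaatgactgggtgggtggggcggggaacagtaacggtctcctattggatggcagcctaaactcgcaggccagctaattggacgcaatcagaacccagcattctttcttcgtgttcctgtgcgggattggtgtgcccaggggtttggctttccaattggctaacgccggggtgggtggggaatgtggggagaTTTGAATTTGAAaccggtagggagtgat
KIF11 (chr10:92592880-92593129, plus strand): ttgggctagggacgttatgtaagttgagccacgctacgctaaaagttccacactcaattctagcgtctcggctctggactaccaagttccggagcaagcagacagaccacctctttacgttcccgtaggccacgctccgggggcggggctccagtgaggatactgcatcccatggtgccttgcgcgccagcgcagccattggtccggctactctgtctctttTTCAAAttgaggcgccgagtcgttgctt
NCAPG (chr4:17810729-17810978, plus strand): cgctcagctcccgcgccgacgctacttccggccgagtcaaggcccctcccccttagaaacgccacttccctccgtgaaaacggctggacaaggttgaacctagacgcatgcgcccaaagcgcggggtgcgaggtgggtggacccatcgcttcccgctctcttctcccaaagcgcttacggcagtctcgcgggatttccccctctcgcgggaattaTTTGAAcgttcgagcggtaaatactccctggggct

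Wide negative differences were also found in other genes of varied function. CXCL8, the neutrophil chemokine interleukin 8 (chromosome 4, 73740569 to 73743716), read 4492, 5263 and 4454 and then 16198, 20105 and 29529.6 in Huh7 but 236, 253, 215 and 203 and then 125, 117, 98.4 and 141 in HepG2. It rose in every Huh7 COP1 siRNA array above the controls and fell in every HepG2 one below them, from very unequal starting levels on the same probe. CXCL8 rose by 2.15 ± 0.18, fell by 0.63 ± 0.15 and differed by -2.78 ± 0.23 (limma adjusted p = 1.4e-06). GADD45A, a growth arrest gene (chromosome 1, 67685201 to 67688334), read 985, 984 and 949 and then 4089, 4539 and 4586 in Huh7, and 2211, 2063, 2241 and 2148 and then 2423, 1915, 2057 and 2302 in HepG2. The Huh7 groups lay far apart and the HepG2 groups overlapped. The difference was -2.09 ± 0.16 (limma adjusted p = 6.5e-07). SPP1, osteopontin (chromosome 4, 87975714 to 87983411), did the converse: in HepG2 it fell from 2778, 3407, 2473 and 2594 to 559, 506, 628 and 562, and in Huh7 it read 4081, 3429 and 3132 and then 3393, 3436 and 3790.2, with overlapping groups. Its difference was -2.17 ± 0.19 (limma adjusted p = 2.2e-06).

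RAB23, a small GTPase that restrains Hedgehog signalling, fell by 1.38 ± 0.14 in HepG2 and rose by 0.72 ± 0.16 in Huh7. EPM2AIP1, a laforin-binding protein, fell by 1.27 ± 0.12 and rose by 0.73 ± 0.14. PNN, the splicing-associated protein pinin, read 619, 477 and 386 and then 915, 1084 and 2086 in Huh7, and 2245, 2646, 1866 and 3005 and then 1238, 1083, 1345 and 1158 in HepG2, with no overlap of groups in either line. Its difference was -2.23 ± 0.32, or -1.89 without Huh7 COP1 siRNA replicate 3, the highest of its group. LYAR, a nucleolar protein of growing cells, rose by 1.39 in Huh7 and fell by 0.67 in HepG2. HSPH1, a nucleotide exchange factor of the HSP70 family, fell by 1.64 ± 0.20 in HepG2 and gave 0.42 ± 0.23 in Huh7.

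Probes of 1 gene did not always give the same answer. The brightest MATR3 probe, for the nuclear matrix protein matrin 3, differed by -2.26, and the other 3 by -1.65, which was called, and by -0.63 and -0.03, which were not. The brightest probe of ZRANB2, a splicing factor, differed by -2.02 and the other by -0.26, not called. Of 1060 genes with more than 1 compared probe, 218 had probes that differed in the call, and 3 had probes called in opposite directions.

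The 10 genes with opposite changes whose smaller change was the largest included DDIT4, KNG1, PNN, PLK4, HMMR and HPX, described above. NAT8, an acetyltransferase of cysteine conjugates found in liver and kidney, read 264, 207, 174 and 157 and then 591, 673, 806 and 602 in HepG2, but 126, 144 and 209.9 and then 38.1, 59.7 and 38.3 in Huh7. The HepG2 COP1 siRNA arrays were the highest and the Huh7 ones the lowest, with no overlap, and the difference was 2.39 ± 0.23 (limma adjusted p = 3.1e-06). MVP, the major vault protein, rose by 0.97 ± 0.15 in HepG2 and fell by 1.31 ± 0.17 in Huh7. ISG20, an interferon-induced exonuclease, rose by 0.99 ± 0.25 and fell by 1.05 ± 0.28. DDIAS, an inhibitor of apoptosis after DNA damage, fell by 1.02 ± 0.20 in HepG2 and rose by 0.90 ± 0.23 in Huh7. Without Huh7 COP1 siRNA replicate 3, all 10 differences still passed.

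Interferon-stimulated genes that changed within a line rose, with 1 exception. Of 44 listed, 17 were compared, 9 rose in HepG2, 10 rose and 1 fell in Huh7, and the response was higher in HepG2 for 4, lower for 3 and not called for 10 (median 0.18). Leaving out Huh7 COP1 siRNA replicate 3 gave 5 higher and 3 lower (median 0.09). GBP1, a guanylate-binding GTPase, read 121, 100.3 and 103 and then 1426, 1895 and 1967 in Huh7. In HepG2 the control arrays were all at background and the COP1 siRNA arrays read 37.5, 27.4, 94.7 and 44.9. GBP1 rose by 3.32 ± 0.19 in Huh7 and at least 1.28-fold in HepG2. It was called lower in HepG2 (limma adjusted p = 3.0e-06), but that p rests on control values at background. The HepG2 rise has no upper limit, so it is not certain that it was the smaller one. IFIT1, which binds foreign RNA ends, differed the other way: HepG2 read 27.6, 24.7, 41.3 and 42.1 and then 308, 280.4, 348 and 375, and Huh7 47.5, 20.99 and 33.2 and then 122, 77.3 and 133. The difference was 1.12 ± 0.20 (limma adjusted p = 0.0012). IRF9, part of the transcription factor complex that interferon activates, rose by 0.96 in HepG2 and gave -0.30 in Huh7, while IFIH1, a sensor of viral RNA, rose by 1.40 in Huh7 and gave 0.15 in HepG2. UBD, a ubiquitin-like protein, rose in both, by 2.33 and 1.64. Of 8 MHC class I presentation genes 1 differed, the peptide transporter gene TAP1, which rose in both lines, by 1.00 in HepG2 and more in Huh7 (difference -0.50 ± 0.16). That call held in 3 of the 14 fits with 1 array left out. The MHC list's median of 0.33 was -0.06 without Huh7 COP1 siRNA replicate 3.

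The share called among NF-kB pathway and feedback genes was near the 24.0% of all genes compared. Of 17 compared, 0 were higher in HepG2 and 4 lower (median -0.27), with 7 rises and 3 falls in Huh7 and 2 rises and 3 falls in HepG2. With Huh7 COP1 siRNA replicate 3 left out, 5 were lower and 0 higher (median -0.36). TNFAIP3, the feedback inhibitor A20, rose in both lines, by 1.70 ± 0.17 in Huh7 and 0.49 ± 0.14 in HepG2 (difference -1.22). NFKB1 rose by 0.92 in Huh7 and gave -0.13 in HepG2, and the kinase gene CHUK fell by 0.72 in HepG2. BIRC2 was called at -1.30, with -0.82 without Huh7 COP1 siRNA replicate 3, which read 2952 against 993 and 1062. Its call held in 10 of the 14 fits with 1 array left out: the limma adjusted p was 0.05032 and 0.088 without control replicate 2 or 3 of Huh7 and 0.053 and 0.060 without COP1 siRNA or control replicate 4 of HepG2. With the replicate number as a block it was 0.072. Of 4 chemokines compared, CXCL16 and CX3CL1 were higher in HepG2, CXCL8 was lower, and CCL20 was not called (2 higher and 2 lower without Huh7 COP1 siRNA replicate 3). AP-1 and early growth response genes had 13 compared, 0 higher and 2 lower, FOSB (-0.81) and MAFF (-0.79). In the fit without Huh7 COP1 siRNA replicate 3, 1 was higher and 4 were lower (median -0.15, from -0.18), and MAFF lost its call without control replicate 3 of Huh7 (limma adjusted p = 0.060).

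Growth arrest and DNA damage targets showed no shared direction, and over all genes compared 24.0% were called. Of 19 targets, 4 were higher in HepG2, 1 was lower and 14 were not called (median 0.05, and 0.0039 with the same counts without Huh7 COP1 siRNA replicate 3). The lower one was GADD45A, and the higher ones were GDF15, a stress cytokine, at 1.53, CYFIP2 at 1.01, SESN2 at 0.72 and TP53INP1 at 0.74. CDKN1A, the cell cycle inhibitor p21, gave 0.26 in HepG2 and 0.24 in Huh7, neither passing. PEA3 ETS factors and MAPK feedback genes had 3 higher and 1 lower of 14, and 4 and 1 without that array. SPRY1, a feedback inhibitor of receptor kinases, and PHLDA1 fell in Huh7 by 1.28 and 1.26, and HBEGF, an EGF receptor ligand, rose there by 1.25.

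Endoplasmic reticulum chaperones had 0 higher and 6 lower in HepG2 of 20 compared, with a median difference of 0.01 (0 and 7 with -0.04 without Huh7 COP1 siRNA replicate 3). Over all genes compared, 11.1% were called higher and 12.9% lower. HSP90B1, the chaperone GRP94, read 7853, 6782, 7279 and 8593 and then 4685, 3326, 3595 and 4089 in HepG2, and 8453, 7959 and 7734 and then 9228, 11350 and 17778 in Huh7. Groups did not overlap within a line. HSP90B1 fell by 0.95 ± 0.17 in HepG2, rose by 0.61 ± 0.19 in Huh7 and differed by -1.56 ± 0.26 (limma adjusted p = 0.00061). NRF2 targets and glutathione transferases had 1 higher and 6 lower of 24 (median -0.11), and 2 and 7 without that array (median -0.33). AKR1B10, an aldo-keto reductase, rose by 1.32 ± 0.14 in Huh7 and fell by 0.57 ± 0.12 in HepG2. HMOX1, heme oxygenase, rose by 1.71 ± 0.19 in Huh7 and gave 0.25 ± 0.17 in HepG2. NFE2L2, the NRF2 gene itself, fell by 0.79 in HepG2 and differed by -1.46.

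Of 23 genes of the actin cytoskeleton, 6 rose in HepG2 and 12 in Huh7, with no falls, and 6 responded lower in HepG2 and 1 higher (median -0.32). Leaving out Huh7 COP1 siRNA replicate 3 gave 6 lower and 2 higher (median -0.26). TAGLN, the actin-binding protein transgelin, read 296, 466 and 459 and then 3279, 2493 and 1255 in Huh7, and 4023, 4306, 4994 and 4349 and then 8974, 8394, 7429 and 8320.5 in HepG2. It rose in both without overlap, by 2.25 ± 0.24 in Huh7 and 0.90 ± 0.21 in HepG2, and more in Huh7 (limma adjusted p = 0.0079). Its paralog TAGLN2 instead rose by 0.84 in HepG2 and gave -0.12 in Huh7. ANXA1, an anti-inflammatory phospholipid-binding protein, rose by 2.48 ± 0.20 in Huh7 and gave 0.48 ± 0.17 in HepG2, where it read 49.4 to 68.7 with control siRNA. CDH2, N-cadherin, rose by 1.33 in Huh7 and gave 0.17 in HepG2.

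In lipid and sugar metabolism the differences ran in both directions. The share called over all genes compared was 24.0%. Fatty acid genes had 5 higher in HepG2 and 2 lower of 19 (median 0.02). FADS1, a desaturase of polyunsaturated fatty acids, fell by 1.73 ± 0.15 in Huh7 and gave -0.05 ± 0.13 in HepG2. FASN, fatty acid synthase, fell by 1.16 ± 0.14 and gave -0.21 ± 0.12. LPIN1, a phosphatidate phosphatase, rose by 0.87 in Huh7 and gave -0.34 in HepG2. Cholesterol genes had 2 higher and 3 lower of 19, glycolysis and hypoxia genes 2 and 2 of 26, and gluconeogenesis and ketogenesis genes 4 and 2 of 11. Without Huh7 COP1 siRNA replicate 3, the higher and lower counts were 6 and 1 for fatty acid genes (median 0.22), 2 and 3 for cholesterol, 2 and 3 for glycolysis and hypoxia, and 4 and 1 for gluconeogenesis and ketogenesis. PC, pyruvate carboxylase, fell by 1.27 in Huh7 and rose by 0.56 in HepG2, and SLC2A1, the glucose transporter GLUT1, rose by 1.02 in Huh7 and gave -0.16 in HepG2.

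Several deep falls were called in both lines with no called difference between them. CANX, the endoplasmic reticulum chaperone calnexin, read 1626, 1448 and 1246 and then 132, 158 and 261 in Huh7, and 821, 729, 710.4 and 819 and then 59.7, 74.6, 70.0 and 71.8 in HepG2. It fell without overlap in both, with responses of -2.57 and -2.55, and the difference was 0.03 with a 95% interval of -0.43 to 0.48. SURF4, a cargo receptor for secretion, fell with responses of -1.78 in Huh7 and -1.80 in HepG2 (difference -0.03, 95% interval -0.36 to 0.31). MRPL18, a mitochondrial ribosomal protein, fell with responses of -1.97 and -2.00. CLINT1, a clathrin adaptor, gave -1.83 and -2.39, and COX7A2, a cytochrome c oxidase subunit, -3.03 and -2.17. The COX7A2 difference was 0.86 (95% interval -0.19 to 1.91) and depended on single arrays. It was 0.16 without Huh7 COP1 siRNA replicate 3, and 1.26 and called without replicate 1 (limma adjusted p = 0.043). The brightest probe of NQO1, a quinone reductase, gave -2.32 and -2.39, but its second probe gave -0.62 in Huh7 and -1.79 in HepG2, a called difference of -1.17 (limma adjusted p = 0.00076). A p that misses the threshold does not show that the responses were equal.

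Where all arrays of a group lay at background, only bounds can be given. This held for 88 of the 8807 genes, 30 of them called, F3 and GBP1 among them. SP140, a nuclear body protein of leukocytes, rose at least 1.60-fold in Huh7 and gave -0.51 in HepG2. MYOM1, a sarcomere protein, rose at least 1.31-fold in HepG2 and fell by 0.89 in Huh7. When all 4 groups had to be above background on every array, 1891 differences were called, 853 higher and 1038 lower.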

How the data were processed

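Total RNA of the Huh7 and HepG2 cultures was measured on bead arrays. Linear bead intensities, deposited per probe and extracted by the authors with GenomeStudio 2009.1 per the submitters' processing notes, were the starting values. A background had been subtracted, since 23.7% of the intensities were negative, and the arrays had been normalized, since their distributions were the same. How either was done is not stated in the labels. A further table has 44 per-sample columns whose names match no sample label, and it was not used here.

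Each of the 22 arrays was corrected with normexp (limma 3.58.1, R 4.3.3, offset 50), log2-transformed and quantile-normalized. The offset is part of every log2 value and makes the changes of dim genes too small. The background threshold is the 0.98 quantile of the sizes of values below 0. Probes above it on at least 3 of the 14 arrays were fitted, 15131 of them. Each gene was represented by its brightest probe, and 1426 fitted probes with no symbol stayed separate. lmFit and eBayes estimated 4 group means over the 14 arrays (10 residual degrees of freedom), and all p-values are two-sided. On each array 12618 to 12642 probes exceeded background, and the number of arrays limits the precision.

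The genes compared, the 36 gene lists and the rule for naming genes were chosen with earlier results of these data known. The named genes are COP1 and its listed partners and substrates, the 12 largest differences each way that passed with every array left out in turn, among genes above background on at least 1 array of each of the 4 groups, the 10 most balanced opposite and 6 largest shared changes, up to 4 called genes per list, and up to 4 called genes with a group at background. Other list members named in the text were chosen after their values were seen. Several genes that met the naming rule are not described in the results here. Bounds compare the brighter group's mean with the background threshold or the dim array's own value, whichever is higher. Locations and promoter windows are from RefSeq (GRCh38.p14). The alternatives varied the normalization, background correction, filters, weights, arrays fitted, replicate block and threshold. The method was tested on simulated data.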

Additional observations from a re-analysis of the deposited data

Results flagged for a closer look

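The response to COP1 siRNA differed between the lines for 2114 genes. Among them, 10 genes with opposite changes in the lines were singled out by the size of the smaller change. The difference between the HepG2 and the Huh7 response was 2.59 for KNG1, 2.44 for DDIT4, 2.39 for NAT8, 2.28 for MVP, 2.04 for ISG20 and 1.75 for HPX on the log2 scale. It was -2.23 for PNN, -2.00 for PLK4, -1.91 for DDIAS and -1.90 for HMMR.

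In 14 of the 310 groups of 4 HepG2 arrays examined over the named genes (4.52%), 1 array stood apart from the others by Dixon's criterion, and chance alone gives about 1 in 20. Among the COP1 siRNA arrays, replicate 2 was the lowest for RAD51AP1 (412 against 604 to 617) and PLK4 (168 against 204 to 209.8), and the highest for TEAD2 (215 against 178 to 184), SLC39A5 (359.7 against 248 to 257) and S100P (16381 against 11489 to 11761). Replicate 3 was the highest for TP53INP1 (254 against 206 to 212) and the lowest for KIF11 (168 against 226 to 230.0), and replicate 1 the lowest for TNFAIP3 (278 against 329.5 to 338). Among the control arrays, replicate 4 was the highest for EPM2AIP1 (568 against 498 to 505) and DDIAS (445 against 232 to 264). Replicate 1 was the highest for JUN (1116 against 971 to 984) and the lowest for DDB1 (8474 against 10212 to 10365). Replicate 2 was the highest for F3 (62.2 against 39.2 to 39.6) and replicate 3 the lowest for ITGB1 (3763 against 4403 to 4498). The Huh7 groups of 3 arrays are too small for this criterion.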

How the results depend on the processing

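Each of the 130 named genes called kept the direction of its difference under the alternatives that gave it a value, and 100 kept the call under all of them. Some were named because they passed with every array left out in turn, so these numbers do not describe called genes in general. Over all 2114 called differences, 1246 stayed called in each fit with 1 array left out. The median difference ran from 0.60 to 1.03 for the ATF4 list, 0.63 to 0.93 for the hepatocyte secreted and surface markers, -0.71 to -0.38 for G2/M genes and -0.56 to -0.38 for G1/S genes. The count of called differences was 2114 in the reported fit, 1264 with array quality weights, whose estimation stopped before it converged (634 higher and 630 lower) and 881 at an adjusted p under 0.01 (437 higher and 444 lower). Genes changed in opposite directions numbered 329 with all 22 arrays in the fit, 44 at an adjusted p under 0.01 and 90 with the replicate number as a block, against 169 as reported. The order of the lines in genes changed depended on the setting: HepG2 had 3454 and Huh7 1456 with array quality weights, 2839 and 1757 with the spread estimated per line, and 867 and 1730 at an adjusted p under 0.01. Cyclic loess gave 1111 higher and 955 lower, so the balance between the directions turned. With 1 array left out, called differences ran from 1377 to 3226, higher from 663 to 1540, lower from 714 to 1686, opposite from 98 (without HepG2 control replicate 4) to 298 (without Huh7 COP1 siRNA replicate 1), changed in HepG2 from 1112 (without HepG2 control replicate 4) to 2997 (without Huh7 COP1 siRNA replicate 3) and changed in Huh7 from 2079 to 3770. The cause of these shifts was not tested.

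With the replicate number as a block, 1418 differences were called, 666 higher and 752 lower. The numbers are no evidence of pairing: deviations of same-numbered arrays correlated between -0.30 and -0.01 in Huh7 and between -0.09 and 0.11 in HepG2. Deviations of differently numbered COP1 siRNA and control arrays correlated between -0.20 and 0.30 in Huh7 and between -0.14 and 0.16 in HepG2. Whether arrays shared a source of deviation under other numbers was not tested. Genes near background have understated changes, and Huh7 had only 3 arrays per siRNA, 1 of them far from the others.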

Other observations

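Other gene lists held between 1 and 6 called differences, against 24.0% called over all genes compared. Of 11 housekeeping genes compared, 1 differed, RPL13A, a ribosomal protein gene that fell by 1.07 in Huh7 and gave 0.09 in HepG2, and ACTB and GAPDH gave differences of -0.03 and -0.18. BCL2 family and death receptor genes had 1 higher in HepG2 and 2 lower of 24. BMF, a BH3-only promoter of apoptosis, fell by 1.39 ± 0.18 in Huh7 and gave 0.37 ± 0.16 in HepG2 (difference 1.76, limma adjusted p = 0.00011). YAP and TEAD target genes had 2 higher and 3 lower of 16, and AJUBA, a scaffold of Hippo signalling, fell by 0.74 in Huh7 and rose by 0.70 in HepG2. Adhesion and EMT genes had 1 higher and 5 lower of 15, annexins 1 and 1 of 11, zinc transporters and metallothioneins 1 and 1 of 16, and histone genes 1 and 1 of 13. C/EBP factors had 2 higher and 1 lower of 6, and the insulin-like growth factor axis 2 higher and 0 lower of 9. Without Huh7 COP1 siRNA replicate 3, the higher and lower counts were 1 and 1 for housekeeping genes, 2 and 1 for BCL2 family, 3 and 2 for YAP and TEAD, 3 and 5 for adhesion and EMT, 1 and 1 for annexins, 2 and 1 for zinc and metallothionein, 1 and 2 for histone, 3 and 1 for C/EBP and 3 and 1 for insulin-like growth factor genes.

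S100P, a calcium-binding protein often raised in liver tumours, fell in Huh7 from 30276, 29952 and 25017 to 11397, 9261 and 3328 and read 10179.8, 10261, 10742 and 10897 and then 11489, 16381, 11761 and 11693 in HepG2. The difference was 2.26 ± 0.39 (limma adjusted p = 0.00094), and 1.72 without Huh7 COP1 siRNA replicate 3. SLC2A3, the glucose transporter GLUT3, was near background in Huh7 and read 11761, 11520.5, 13347 and 14690.5 and then 20105, 19389.8, 19606 and 22032 in HepG2, where it rose by 0.66 ± 0.14. CEBPZ, which shares a name but no close structure with the C/EBP factors, rose by 1.12 in Huh7 and gave -0.66 in HepG2.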
